A study of Mus musculus with 8 samples.

Results

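The alpha-arrestins are adaptor proteins with an arrestin fold, and 5 of their genes, Txnip, Arrdc1, Arrdc2, Arrdc3 and Arrdc4, are described here with Mlxip and Mlx, which encode the transcription factor MondoA and its partner MLX. The 7 genes were taken by symbol from a table of 55487 genes, and all 7 passed the filter on low counts that left 17047 genes to test. The family was chosen by its measured difference between hypoxia and normoxia in these same libraries, where Txnip and Arrdc2 stand among the increases. That difference is therefore given for the 7 genes as a description, without a p-value.

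The tissue was the hypothalamus of C57BL/6J mice, from which mRNA libraries were sequenced. In the hypoxia group, mice breathed 7% oxygen in a chamber for 2 hours (4 libraries), and in the normoxia group they stayed at 21% oxygen (4 libraries). The labels used here state no age, allele or drug, and the 4 libraries of a group are called biological replicates. Total counts ran from 16994473 to 21694383 per library. Genes that mark the hypothalamus were present, with 17 of the 18 listed tested and a summed level of 927.9 to 1066 CPM (counts scaled to library size by TMM) in hypoxia, against 597.5 to 1083 CPM in normoxia. The remaining gene, Kiss1, had no count.

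Alpha-arrestins recruit ubiquitin ligases of the NEDD4 type to membrane proteins, which are then taken into the cell. TXNIP, the best known of them, binds thioredoxin and promotes the internalisation of the glucose transporter GLUT1, so that more TXNIP means less glucose uptake. MondoA and MLX sense glucose phosphates, enter the nucleus together and bind carbohydrate response elements, paired E-box-like sequences, in the promoters of Txnip and Arrdc4.

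The sequences before the transcription start are shown for the 3 family members with higher levels in hypoxia and for Arrdc4, the other classical target of MondoA. Each line gives bases -250 to -11 from the RefSeq start on the strand of the gene (build GRCm38.p6). Capitals mark a tandem element, defined as CACGNG followed after 5 bases by a second CACGNG, or the E-box CACGTG. The windows are chr3:96557707-96557946 on the plus strand for Txnip, chr8:70839731-70839970 on the minus strand for Arrdc2, chr13:80883134-80883373 on the plus strand for Arrdc3 and chr7:68749249-68749488 on the minus strand for Arrdc4.
Txnip: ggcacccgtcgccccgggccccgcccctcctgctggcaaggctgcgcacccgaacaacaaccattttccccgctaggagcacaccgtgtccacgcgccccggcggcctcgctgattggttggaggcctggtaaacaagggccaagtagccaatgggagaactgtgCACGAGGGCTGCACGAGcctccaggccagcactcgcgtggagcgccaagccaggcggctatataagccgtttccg
Arrdc2: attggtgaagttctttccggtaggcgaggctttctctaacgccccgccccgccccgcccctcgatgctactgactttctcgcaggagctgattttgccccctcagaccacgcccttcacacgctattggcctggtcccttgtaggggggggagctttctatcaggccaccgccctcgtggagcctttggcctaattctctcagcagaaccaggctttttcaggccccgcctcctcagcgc
Arrdc3: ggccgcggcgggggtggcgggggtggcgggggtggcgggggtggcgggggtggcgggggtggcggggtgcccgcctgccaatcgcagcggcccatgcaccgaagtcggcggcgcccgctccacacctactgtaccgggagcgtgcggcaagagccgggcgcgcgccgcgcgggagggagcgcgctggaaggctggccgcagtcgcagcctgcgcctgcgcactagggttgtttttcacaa
Arrdc4: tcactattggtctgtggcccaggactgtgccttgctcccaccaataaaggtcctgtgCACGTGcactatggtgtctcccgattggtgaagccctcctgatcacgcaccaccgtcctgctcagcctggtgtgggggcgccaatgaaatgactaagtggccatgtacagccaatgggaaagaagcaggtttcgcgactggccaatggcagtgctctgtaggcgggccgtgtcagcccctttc

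The Txnip promoter held the tandem element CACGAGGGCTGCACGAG at positions -85 to -69. This spelling, searched on both strands in the 250 bases before each start, was found in 15 of 32817 RefSeq windows (0.0457%). Those windows belonged to 14 genes, of which 10 were tested. Only Txnip, whose increase was known when the family was chosen, was called, where 2.15% of all genes tested were. That call is therefore no result about the element. The log2 changes of the other 9 tested genes ran from -0.39 to 0.10. Genes were called when the quasi-likelihood test of edgeR gave p under 0.05 after Benjamini-Hochberg adjustment across the 17047 genes. A looser spelling with CANNNG in each place, which includes the tandem element, was present in 11.6% of windows and, among the 7 genes, in those of Txnip and Mlx. The Arrdc4 window had a single E-box, CACGTG, at -193 to -188, and the Mlx window had another at -40 to -35, against 6.02% of all windows. No window of Arrdc1, Arrdc2, Arrdc3 or Mlxip held either form.

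Other motifs were searched in the same way. The core of the hypoxia response element was searched as ACGTG, which lies inside CACGTG, and as GCGTG. The first of these was in 16.6% of all windows and, among the family, in those of Arrdc4, Mlx and the most downstream of the 3 RefSeq starts of Arrdc3. The second was in 28.1% of all windows and in those of every one of the 7 genes except Mlx. The Txnip window also held a glucocorticoid-type palindrome ACANNNTGT, as ACACCGTGT at -170 to -162, against 5.84% of all windows. It held the forkhead-type motif TGTTTAC on its opposite strand at -121 to -115, against 3.16%. Neither of these was in the window of another member. CCAAT was in 33.8% of all windows and in the window of each member except Arrdc1 and the most downstream start of Arrdc3. Arrdc4 had 6 copies of it. A match describes the letters of the window and does not show binding.

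Some libraries differed from the rest of their group in marker genes. Normoxia replicate 2 had a summed level of cortex and hippocampus markers of 1782 CPM, against 765.2 to 969.1 CPM in hypoxia and 669.2 CPM in the lowest normoxia library. It also had the lowest sum of hypothalamus markers, 597.5 CPM, and the highest of pituitary markers, 80.3 CPM. Hypoxia replicate 4 had the highest pituitary sum of its group, 42.5 CPM. Hypoxia replicate 2 had a sum of oligodendrocyte markers of 10050 CPM, against 6811 to 7098 CPM in the other hypoxia libraries, and the sum in normoxia replicate 1 was 11660 CPM, against 6580 to 8589 CPM in the other normoxia libraries. The part of these markers in the values of the 7 genes was not tested. For the 7 genes, log2 changes are also given without normoxia replicate 2 and hypoxia replicate 4 together, and without hypoxia replicate 2.

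Txnip, Arrdc2 and Arrdc3 were higher after 2 hours at 7% oxygen, Mlx was lower, and Arrdc1, Arrdc4 and Mlxip overlapped between the groups. In the fit of all genes, 3 of the 7 were called higher, where 0.915% of all genes tested were, and 1 lower, where 1.23% were. By the values alone, 3 lay wholly above and 1 wholly below the normoxia libraries, against 5.69% and 7.75% of all genes. These counts follow from how the family was chosen. The tissue was sequenced in bulk, so a change in RNA per cell and a change in the share of a cell type cannot be told apart.

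**Figure D1:**
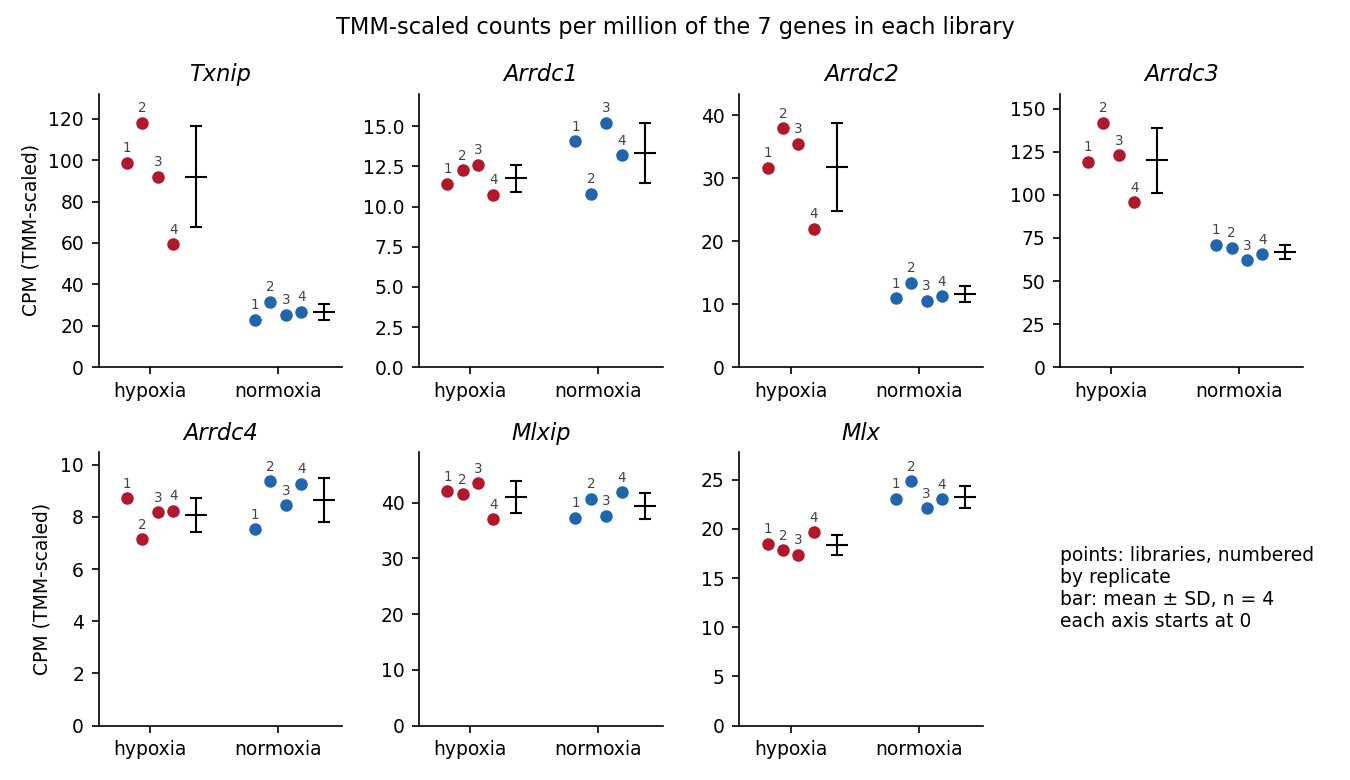
TMM-scaled CPM (vertical axes, each from 0) of the 7 genes in the hypoxia libraries (red) and the normoxia libraries (blue), with replicate numbers beside the points and the mean ± SD of 4 libraries as bars. Hypoxia replicate 4 is the lowest hypoxia library for Txnip (59.4 CPM), Arrdc2 (22.01 CPM) and Arrdc3 (95.7 CPM), and still lies above every normoxia library of these genes.

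Txnip lies on chromosome 3 (96557957 to 96561883, mm10, plus strand, 6 annotated transcripts). It had 98.8, 118, 92.0 and 59.4 CPM in hypoxia replicates 1 to 4, against 23.0, 31.6, 25.3 and 26.7 CPM in normoxia. Each hypoxia library was above each normoxia library. The SD was 24.4 CPM in hypoxia, at a mean of 92.1 CPM, and 3.66 CPM in normoxia, at a mean of 26.65 CPM. Deviations of log2 CPM from the group mean ran from -0.59 (replicate 4) to 0.40 in hypoxia and from -0.20 to 0.26 in normoxia. The log2 change was 1.79 ± 0.19 (SE), rank 23 from the top of the 17047 genes. Without hypoxia replicate 4 and normoxia replicate 2, the means were 103 ± 13.5 CPM and 24.99 ± 1.87 CPM (SD, n = 3 each), and the log2 change was 2.04. Without hypoxia replicate 2, the highest hypoxia library, it was 1.65. Gm15441, an antisense gene whose exons share 606 bases with those of Txnip, had 0 to 3 counts per library, while Txnip had 440 to 2215. Txnip is known as an abundant transcript of blood vessel cells. Of 10 endothelial markers, 0 were called higher and 1 lower, against 0.915% and 1.23% of all genes, and their summed level was 311.1 to 358.6 CPM in hypoxia and 323.9 to 385.1 CPM in normoxia. Of 8 markers of mural cells, which wrap small vessels, 1 was called higher and 0 lower, and their sum was 210.0 to 257.1 CPM in hypoxia and 201.3 to 254.4 CPM in normoxia. The called mural gene was Kcnj8, a potassium channel subunit, with a log2 change of 0.98 (edgeR adjusted p = 0.0371). That call was not examined with libraries left out. Log2 changes were positive in 4 of the 8 mural markers (median -0.03) and in 3 of the 10 endothelial markers (median -0.08). The part of vessel cells in the Txnip values was not tested.

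Arrdc2, on chromosome 8 (70835129 to 70839720, minus strand), had lower counts than Txnip in every library. It was at 31.7, 38.0, 35.5 and 22.01 CPM in hypoxia, and at 11.002, 13.4, 10.6 and 11.3 CPM in normoxia. The groups were apart, and the replicates that were lowest in hypoxia and highest in normoxia were the same as for Txnip. Its log2 change was 1.46 ± 0.16 (SE), rank 39 from the top. It was 1.68 without those 2 libraries and 1.37 without hypoxia replicate 2.

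Arrdc3, on chromosome 13 (80883384 to 80896042, plus strand), encodes an adaptor for the beta-2 adrenergic receptor and had the highest counts of the family. It was at 119, 142, 123 and 95.7 CPM in hypoxia and at 71.0, 69.3, 62.1 and 65.4 CPM in normoxia. The groups did not overlap, and the log2 change was 0.84 ± 0.11 (SE), rank 168 from the top. It was 0.95 without hypoxia replicate 4 and normoxia replicate 2, and 0.75 without hypoxia replicate 2. Arrdc3 met the call rule in 5 of the 8 fits that left out 1 library, where Txnip and Arrdc2 met it in all 8. It was missed without hypoxia replicate 1, hypoxia replicate 3 or normoxia replicate 4.

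Arrdc4, on chromosome 7 (68736995 to 68749241, minus strand), encodes a paralog of TXNIP that likewise restrains glucose uptake. It had 8.70, 7.14, 8.17 and 8.24 CPM in hypoxia, against 7.52, 9.36, 8.44 and 9.26 CPM in normoxia. The groups overlapped, with a log2 change of -0.10 ± 0.11 (SE), and from -0.16 to -0.04 over the alternatives run. That change was -0.07 without hypoxia replicate 4 and normoxia replicate 2, and -0.04 without hypoxia replicate 2. The counts of Arrdc4 per library, 134 to 204, were the lowest of the 7 genes.

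Arrdc1, on chromosome 2 (24925352 to 24935252, minus strand), encodes the adaptor that drives the budding of vesicles from the plasma membrane. It had 11.4, 12.3, 12.6 and 10.7 CPM in hypoxia and 14.1, 10.8, 15.2 and 13.2 CPM in normoxia. Normoxia replicate 2 fell among the hypoxia values, while the other 3 normoxia libraries lay above them. The log2 change was -0.18 ± 0.11 (SE). Without hypoxia replicate 4 and normoxia replicate 2 the means were 12.1 ± 0.615 CPM and 14.2 ± 1.01 CPM (SD, n = 3 each), and the log2 change was -0.23. Without hypoxia replicate 2 it was -0.20. A further alpha-arrestin gene, Arrdc5, had no count in any of the 8 libraries, which allows up to 0.138 CPM in the deepest and 0.177 CPM in the shallowest library (3 counts, counting error only).

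The glucose-sensing factors differed from each other. Mlx, on chromosome 11 (101087277 to 101092207, plus strand), was at 18.5, 17.9, 17.4 and 19.7 CPM in hypoxia and at 23.1, 24.8, 22.1 and 23.0 CPM in normoxia. Every hypoxia library was below every normoxia library, and the log2 change was -0.34 ± 0.07 (SE). Mlx met the call rule without hypoxia replicate 4 or normoxia replicate 2 and in none of the other 6 fits that left out 1 library. Over all 8 of these fits its log2 change ran from -0.38 to -0.31, with -0.33 without hypoxia replicate 2. Without hypoxia replicate 4 and normoxia replicate 2 together it was -0.34. The exons of Mlx share 385 bases with Psmc3ip on the opposite strand, which had 31 to 57 counts per library against 335 to 507 for Mlx. Whether the counting used strand is not stated, so reads of an antisense partner cannot be told apart. Mlxip, on chromosome 5 (123394798 to 123457932, plus strand), was at 42.1, 41.5, 43.5 and 37.0 CPM in hypoxia and at 37.3, 40.7, 37.7 and 41.9 CPM in normoxia. Those values overlapped, with a log2 change of 0.06 ± 0.07 (SE). The change was 0.12 without hypoxia replicate 4 and normoxia replicate 2, and 0.06 without hypoxia replicate 2. Gm15747, antisense to Mlxip over 267 exon bases, had 0 to 2 counts per library, and 1700023H06Rik, antisense to Arrdc3 with no shared exon base, had 0 to 1.

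Levels of different genes were compared per kilobase of exon. In hypoxia, Txnip came first at 29.5 ± 7.81 CPM per kilobase, before Arrdc3 at 19.2 ± 3.02 and Arrdc2 at 9.84 ± 2.17 (SD, n = 4). In normoxia, the order opened with Mlx at 11.6 ± 0.569 CPM per kilobase and Arrdc3 at 10.7 ± 0.637, and Txnip followed at 8.53 ± 1.17. Arrdc4 was last in both groups, at 2.00 ± 0.163 CPM per kilobase in hypoxia and 2.14 ± 0.212 in normoxia. The ranges over libraries overlapped for Txnip and Arrdc3, Arrdc2 and Mlx, and Mlxip and Arrdc1 in hypoxia, and for Mlx and Arrdc3, Arrdc3 and Txnip, and Arrdc1 and Mlxip in normoxia. Within single libraries and per kilobase of exon, however, Txnip was above Arrdc3 in 4 of 4 hypoxia libraries and below it in 4 of 4 normoxia libraries. The order of neighbours by the mean held in each library except for Arrdc2 over Mlx in hypoxia and Arrdc1 over Mlxip in normoxia, which held in 3 of 4. With the longest transcript as the length, Mlx and Arrdc3 changed places in normoxia and Mlxip and Arrdc1 in hypoxia, by the means. Longest transcripts have 2827 bases for Txnip and 4132 for Arrdc3, against 3123 and 6266 bases of exon, so that length raises Arrdc3 relative to Txnip. By that length, Arrdc3 was above Txnip in hypoxia replicate 4 (95.7 and 59.4 CPM before length scaling). Txnip stayed above Arrdc3 in the other hypoxia libraries and below it in every normoxia library. The order within hypoxia libraries thus depends on the length used. The family shares given below rest on exon length alone.

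**Figure D2:**
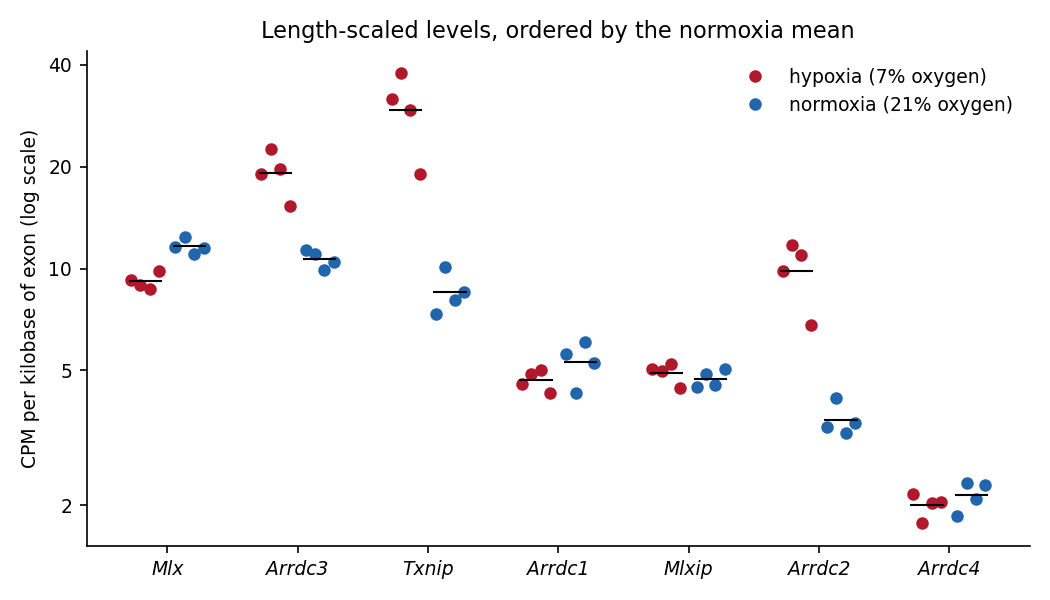
Length-scaled levels (CPM per kilobase of exon, log axis) of the 7 genes in each hypoxia library (red, left) and normoxia library (blue, right), with the mean as a line and genes in order of the normoxia mean. Txnip stands behind Mlx and Arrdc3 by the normoxia mean (8.53) and first by the hypoxia mean (29.5), while Arrdc4 is last in both groups.

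Summed over the 5 alpha-arrestins, the family had 264 ± 50.1 CPM in hypoxia and 127 ± 5.38 CPM in normoxia (SD, n = 4 each). Per kilobase of exon, Txnip made up 44.7 ± 3.56% of the family in hypoxia and 28.1 ± 2.81% in normoxia. The share of Arrdc3 was 29.6 ± 1.76% in hypoxia and 35.3 ± 2.05% in normoxia. Arrdc2 had 15.1 ± 0.898% in hypoxia and 11.8 ± 0.808% in normoxia. The shares of Arrdc1, 7.36 ± 1.22% in hypoxia and 17.6 ± 3.06% in normoxia, and of Arrdc4, 3.19 ± 0.849% in hypoxia and 7.07 ± 0.560% in normoxia, were lower in hypoxia, while their levels overlapped between the groups. The Txnip share ran from 40.1% to 47.9% in hypoxia and from 24.9% to 31.7% in normoxia, where normoxia replicate 2 was highest.

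Libraries of the same group also differed from each other. After the mean of its group was taken from each log2 CPM, hypoxia replicate 4 was at -0.59 for Txnip, -0.50 for Arrdc2 and -0.31 for Arrdc3. Hypoxia replicate 2 was the highest of its group for all 3, at 0.40, 0.29 and 0.26. In normoxia, replicate 2 was at 0.26 for Txnip, 0.22 for Arrdc2 and 0.05 for Arrdc3. The 3 genes thus departed from their group means in the same libraries in hypoxia.

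**Figure D3:**
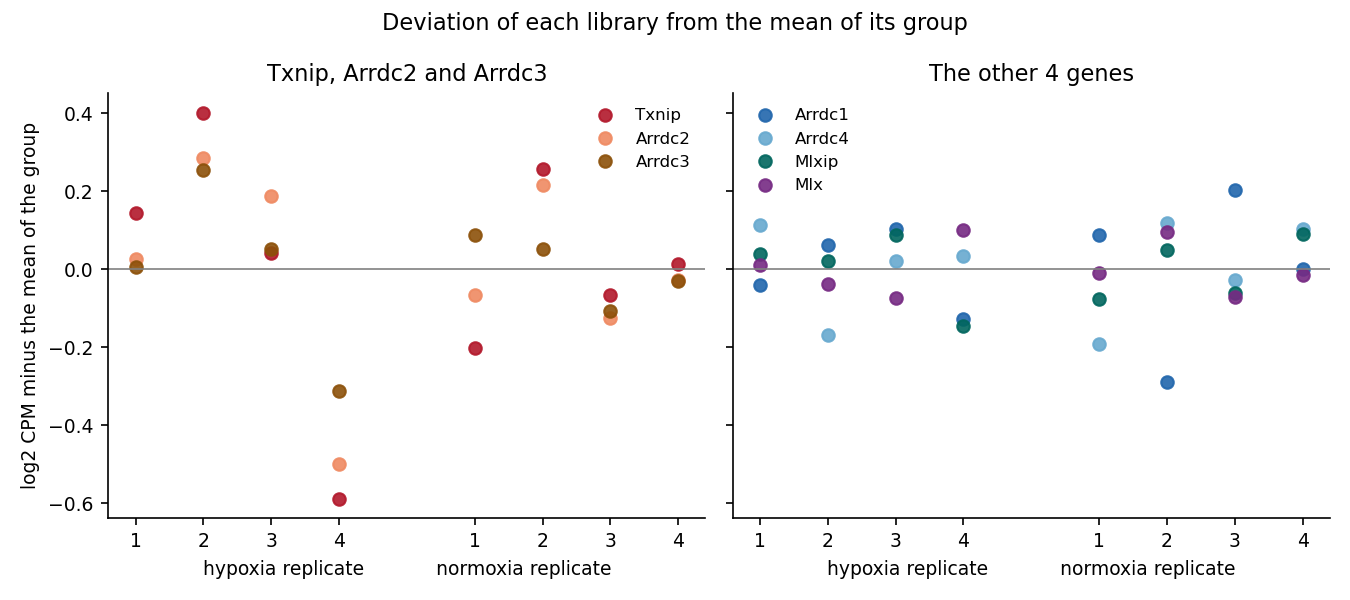
Deviation of log2 CPM from the mean of the group (vertical axis) in each hypoxia and normoxia replicate (horizontal axis), for Txnip, Arrdc2 and Arrdc3 on the left and the other 4 genes on the right. The 3 genes on the left are lowest in hypoxia replicate 4 (-0.59, -0.50 and -0.31) and highest in hypoxia replicate 2, while the other 4 genes stay between -0.29 and 0.20.

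As a description over 8 libraries that share their group means, the deviations of Txnip and Arrdc2 correlated with r = 0.94, those of Arrdc2 and Arrdc3 with 0.90 and those of Txnip and Arrdc3 with 0.84. Part of this rested on 2 of the libraries above, since without hypoxia replicate 4 and normoxia replicate 2 the values were 0.52, 0.77 and 0.41. Without hypoxia replicate 2 they were 0.92, 0.89 and 0.75. Mlxip correlated with Txnip at 0.75 and with Arrdc2 at 0.78. Without hypoxia replicate 4 and normoxia replicate 2 these were 0.13 and 0.20, and without hypoxia replicate 2 they were 0.86 and 0.85. Txnip and Arrdc4 were at 0.01 with all libraries and at 0.54 without hypoxia replicate 2. Arrdc1 and Mlx ran opposite to each other, at -0.92 with all libraries and -0.89 without hypoxia replicate 4 and normoxia replicate 2.

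The genes most like Txnip in these deviations, among 11791 with a symbol and at least 5 CPM, were Paxx, Fbrsl1, Fzd4, Pan3 and Cadm3, at r = 0.96 to 0.94, and Arrdc2 ranked 7. They were picked as the highest of 11791 values over 8 libraries, where some genes can reach such an r by chance. Values without hypoxia replicate 2 were not computed for these genes. Without hypoxia replicate 4 and normoxia replicate 2, r was 0.90 for Pan3, 0.81 for Cadm3, 0.79 for Fbrsl1, 0.65 for Paxx and 0.59 for Fzd4. For Arrdc2 they were Aph1a, Fzd4, Nt5c2, Paxx and Rpl5, at r = 0.98 to 0.97, and Txnip ranked 10. Without those 2 libraries, r was 0.96 for Aph1a, 0.82 for Fzd4, 0.70 for Nt5c2, 0.68 for Paxx and 0.63 for Rpl5. Paxx and Fzd4, which encodes a receptor for Wnt and norrin on blood vessels, were in both sets. Since Txnip and Arrdc2 correlated at 0.94 with each other, the sets are not independent. Paxx was not called (log2 change 0.21, edgeR adjusted p = 0.193). Fzd4 had 20.6 ± 2.59 CPM in hypoxia and 14.1 ± 0.817 CPM in normoxia (SD, n = 4 each), a log2 difference of 0.55 with an SE of 0.10 (adjusted p = 0.0313 in edgeR). That call was made without hypoxia replicate 4 or normoxia replicate 2 and lost without any of the other 6 libraries.

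Around the family, 10 lists of partners, targets and related genes were examined. Of their 92 genes tested, 1 was called higher and 2 lower, 3.26% against 2.15% of all genes. The median log2 change of the 92 genes was 0.03, and that of all genes was -0.01. The 3 called genes were Slc2a1, Itch and Notch1.

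**Figure D4:**
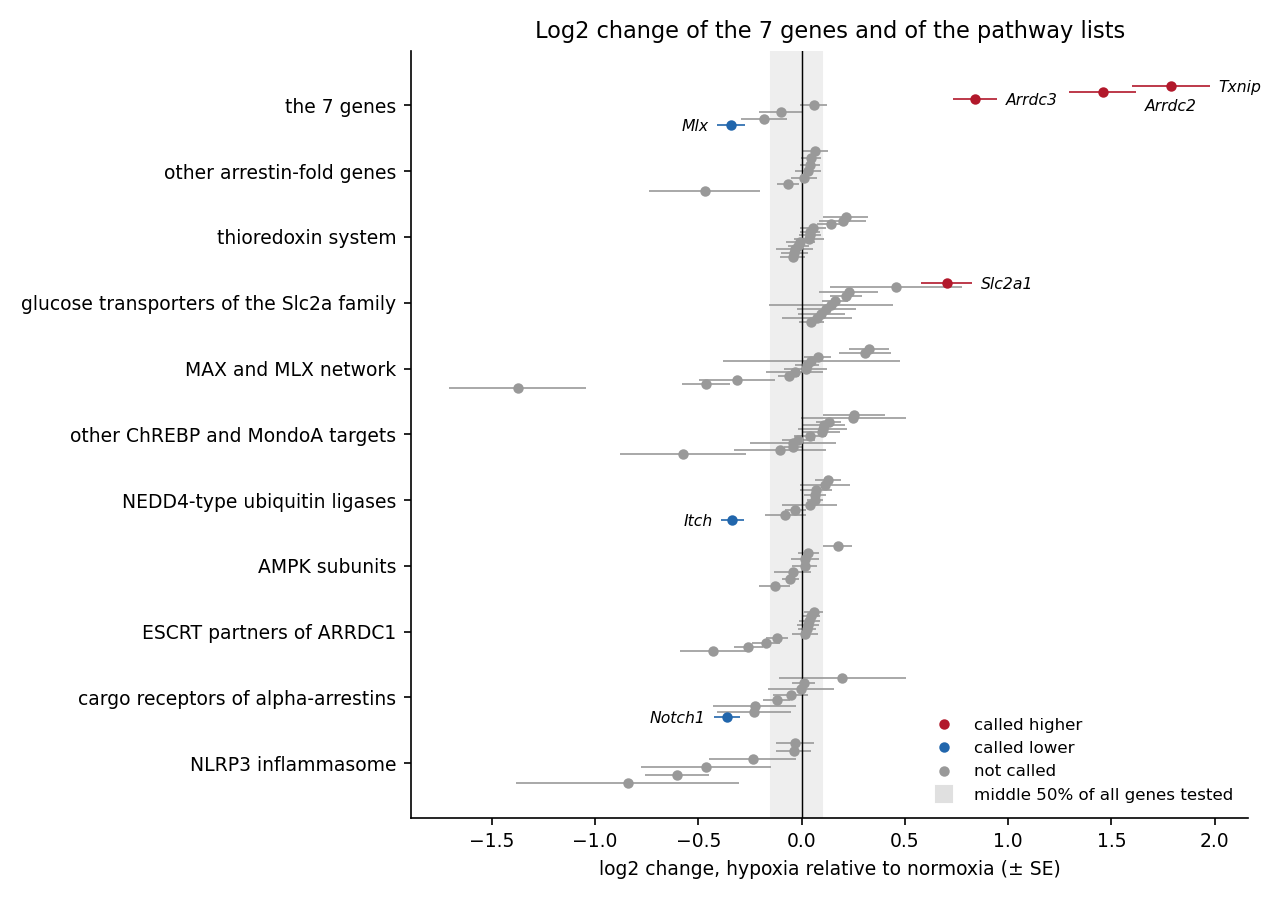
Log2 change of each gene, hypoxia relative to normoxia (horizontal axis, ± SE), for the 7 genes in the top row and the members of 10 lists below, with called genes named and the middle of all genes tested shaded. Outside the 7 genes, Slc2a1 (0.70) is the call on the higher side and Itch (-0.33) and Notch1 (-0.36) are those on the lower side.

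Slc2a1 encodes GLUT1, the glucose transporter of the blood-brain barrier and a cargo of TXNIP. It had 175, 200.1, 179 and 139.9 CPM in hypoxia, against 114, 125, 96.0 and 92.0 CPM in normoxia, with no overlap. The log2 change was 0.70 ± 0.12 (SE, with an adjusted p in edgeR of 0.0293). Log2 changes were positive in 10 of the 10 Slc2a family members tested (median 0.15), and Slc2a1 alone was called. Several of these changes were smaller than their SE. In other lists, 0 of 6 inflammasome genes (median -0.35) and 2 of 8 cargo receptors (median -0.09) were positive. Of the inflammasome genes, Il18 (-0.03 ± 0.09, SE) and Nek7 (-0.04 ± 0.08) changed by less than their SE. Nlrp3, Casp1 and Pycard had few counts (11 to 33, 9 to 65 and 33 to 66 per library). The share of positive changes over all genes was not computed, and a difference in direction between lists was not tested. An antisense gene, Gm12868, shares 105 exon bases with Slc2a1. The neuronal transporter gene Slc2a3 was at 0.22 ± 0.08 (SE; edgeR adjusted p = 0.177).

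Itch encodes a NEDD4-type ubiquitin ligase that binds TXNIP and marks it for degradation. It fell to 65.2, 67.4, 62.5 and 73.4 CPM in hypoxia, against 87.9, 86.1, 82.98 and 81.6 CPM in normoxia. The log2 change was -0.33 ± 0.06 (SE, with an adjusted p in edgeR of 0.0284), and the other 8 ligases of the list, Nedd4, Nedd4l, Wwp1 and Wwp2 among them, were not called. Notch1, a receptor whose degradation ARRDC1 promotes together with ITCH, was at 33.6, 32.3, 33.9 and 37.9 CPM in hypoxia and at 45.1, 45.4, 45.2 and 41.3 CPM in normoxia. Its log2 change was -0.36 ± 0.06 (SE; edgeR adjusted p = 0.0291), and the other 7 cargo receptors tested were not called. 0610009E02Rik on the opposite strand shares 1068 exon bases with Notch1. Slc2a1, Itch and Notch1 were each called in 2 of the 8 fits that left out 1 library, those without hypoxia replicate 4 or normoxia replicate 2. In the other 6 the adjusted p ran from 0.071 to 0.12 for Slc2a1, from 0.0725 to 0.12 for Itch and from 0.0692 to 0.125 for Notch1.

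None of the 12 thioredoxin system genes was called, and the thioredoxin gene Txn1 had a log2 change of -0.03. Since 2.15% of all genes tested were called, most lists this short would hold no call. The smallest p of that list belonged to Txnl1, a thioredoxin-like protein, at 0.14 ± 0.07 (SE; edgeR adjusted p = 0.298). In the network of MAX and MLX partners, 0 of 11 were called by edgeR. Mycn, a MYC family member, had the smallest p at a log2 change of -1.37 ± 0.33 (SE; edgeR adjusted p = 0.0675), and it was called lower in 4 of 18 alternatives. These were DESeq2 and the edgeR fits with no filter on low counts, without hypoxia replicate 4, and without hypoxia replicate 4 and normoxia replicate 2 together, and the adjusted p ran from 0.00197 to 0.206 over the 18. Mlxipl, which encodes the MondoA relative ChREBP, was at 2.13 to 3.84 CPM in hypoxia and 3.48 to 4.27 CPM in normoxia, with a log2 change of -0.31 ± 0.18 (SE).

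Of 12 other glucose-responsive genes known as targets of ChREBP or MondoA, mostly from liver and muscle, 0 were called, against 2.15% of all genes tested. The same share applies to the other short lists below. The smallest p was that of Acly, ATP citrate lyase, at a log2 change of 0.13 ± 0.06 (SE; edgeR adjusted p = 0.275). None of 7 other arrestin-fold genes was called, and the beta-arrestin genes Arrb1 and Arrb2 were at 0.06 and 0.03. The smallest p there was that of the visual arrestin Sag (log2 -0.47, adjusted p = 0.371), at about 1 CPM. None of 7 AMPK genes (Prkab2, log2 0.17, adjusted p = 0.221), 10 ESCRT partners of ARRDC1 (Vps37c, log2 -0.26, adjusted p = 0.0977) or 6 inflammasome genes (Pycard, log2 -0.60, adjusted p = 0.0816) was called, where the gene in brackets had the smallest p in edgeR. Over all genes, 3291 had an unadjusted p under 0.05.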

How the data were processed

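The authors deposited a table of raw counts, with Ensembl genes in lines and libraries in columns, whose names match the descriptions of the samples. Per the labels' protocols, libraries were made with a strand-specific mRNA kit. Per the submitters' processing notes, the build was mm10 and the tools were featureCounts, SAMtools, HISAT, HISAT2 2.0.4, Trimmomatic and DESeq2. Gene annotation release, use of strand and handling of multimapping reads: not given in the sources used here.

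All 8 libraries entered 1 fit of the counts in edgeR 4.0.16 (R 4.3.3). The steps were filterByExpr (minimum count 10, minimum total 15), TMM scaling and the quasi-likelihood F test with group as the only term, and p-values were adjusted by Benjamini-Hochberg over 17047 genes. The SE of a log2 change is its size divided by the square root of F. Log2 CPM had a prior count of 2. Positions, exon lengths and overlaps come from GENCODE M21 (GRCm38), promoter windows from RefSeq (GRCm38.p6), where all 7 members matched. The fit was tested on simulated data with 200 genes changed.

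The members and lists were chosen with earlier results of these data known. The text names all 7 members, and from each pathway list the up to 4 called genes with the smallest p, or the gene with the smallest p where none was called. It also names genes overlapping a member and the 5 genes most like Txnip and Arrdc2 in deviations within groups (Pearson's r). Mlxipl, Slc2a3, Txn1, Arrb1, Arrb2, Kcnj8 and Arrdc5 were added after their values were seen. Libraries of a group differed beyond sampling noise (chi-square 4.62 to 37.4 per gene and pair), and the p-values rest on that spread alone. Alternatives were DESeq2 1.42.0, limma-voom (limma 3.58.1), other scalings, filters and thresholds, a replicate block, libraries left out, and other lengths.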

Additional observations from a re-analysis of the deposited data

Results flagged for a closer look

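In each group of 4 libraries, the gap between the highest or lowest value and its neighbour was set against the range for the 7 genes and the other genes named from the lists, 36 groups in all. Such a gap is flagged by chance in about 1 of 20 groups, and 2 were flagged. Acly had 333 CPM in hypoxia replicate 1, above the rest of the hypoxia group, with a gap of 0.892 of the range. Notch1 had 41.3 CPM in normoxia replicate 4, below the rest of the normoxia group, with a gap of 0.922 of the range. None of the groups of the 7 genes was flagged.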

How the results depend on the processing

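Txnip and Arrdc2 met the call rule in all 18 alternative fits, Arrdc3 in 15 and Mlx in 10, and no log2 change of the 7 genes moved by more than 1 SD of its replicates. Leaving out 1 library at a time, 2 to 3 members were called higher and 0 to 1 lower, 0 to 4 list genes higher and 0 to 3 lower, and 24 to 329 of all genes higher and 2 to 457 lower. Over all genes, the fits without hypoxia replicate 4 (236 and 457) or normoxia replicate 2 (329 and 346) gave more calls than with 8 libraries, and the other 6 gave 24 to 42 higher and 2 to 8 lower. Lacking both, 456 genes were higher and 739 lower, and of the list genes 4 and 5. With a replicate block, 20 genes were higher and 1 lower, 3 members were higher and 0 lower, and 1 list gene was higher and 0 lower. Deviations of same-numbered libraries correlated at -0.105 to 0.043, and those of unlike-numbered libraries at -0.142 to 0.135. Such correlations cannot show whether libraries of the same number shared a batch, and the labels used here do not say. The block left Slc2a1 called and not Itch (adjusted p = 0.121), Notch1 (0.142) or Fzd4 (0.107). DESeq2 called 383 higher and 634 lower, and 2 and 4 of the list genes. Library size alone gave 146 higher and 342 lower, against 156 and 210 with TMM. With no filter on low counts, 0 members were lower. At an adjusted p under 0.01, 24 genes were higher and 2 lower, with 0 members lower and 0 list genes in either direction. Under 0.1, there were 384 and 674, with 6 list genes lower. With the longest transcript as length, Arrdc3 ranked 1 and Mlx 2 in normoxia, and Arrdc1 ranked 5 and Mlxip 6 in hypoxia. The cause was not tested. Depth limits Arrdc4 most, at 134 to 204 counts per library.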
